A study of Mus musculus with 12 samples.

Results

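A set of 212 genes was nearly silent in untreated mouse gastric organoids and detectable after 4 h with Fusobacterium nucleatum. Gastric organoids are small epithelial bodies grown from stomach in a gel. The set was chosen from the deposited TPM values (read counts scaled for gene length and to the same total in each library). A gene belongs to it if its mean was under 0.5 TPM over the 3 untreated libraries and 1 TPM or more over the 3 Fusobacterium libraries. Of 25759 genes in the table, 13670 were under 0.5 TPM without bacteria, and 218 of these (1.59%) reached 1 TPM with Fusobacterium. Of these 218, 6 genes (Cyp1a1, Nos2, Sprr2d and 3 histone genes) were left out by name, which leaves the 212. Because the Fusobacterium and untreated values chose the genes, the difference between those 2 groups is a description here and not a finding.

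The study has 4 groups of 3 libraries, which are organoids with Fusobacterium nucleatum, with Helicobacter pylori, with Neisseria subflava, and with no bacteria. All had been passaged once and plated on matrigel in a medium that lacked growth factors and antibiotics, and total RNA was purified on columns. The labels name neither a mouse strain nor the number of animals, so each p here reflects only how far these libraries spread. Library totals ran from 16955155 to 23236260 counts. The 18 markers of gastric epithelium were above 0.5 TPM on average in every group and summed to 27671 to 31823 TPM per library. Over 14 pancreatic genes, the untreated libraries held 302 to 416 TPM and Helicobacter replicate 1 held 207 TPM, while each Fusobacterium and Neisseria library held 2.20 TPM or less.

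Many of the 212 genes are known from excitable or specialised cells. Syngr3 encodes synaptogyrin-3, a membrane protein of synaptic vesicles, the small sacs that store neurotransmitter at nerve endings and fuse with the cell surface to release it. Nyap1 encodes an adaptor protein of neurons that links Src-family kinases to phosphoinositide 3-kinase and to the WAVE1 complex, which drives actin branching. Mak encodes a kinase of male germ cells and of photoreceptors, where it limits the length of the cilium. A stomach epithelium is not where these genes are usually described. With so little RNA of each gene in bulk libraries, fewer cells that express it and less RNA per cell cannot be told apart.

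For the sequences around transcription starts, RefSeq promoter windows of the GRCm38.p6 build hold 250 bases before and 50 bases after each start. Such windows were at hand for 158 of the 212 genes (74.5%), under the 80% needed to summarise the composition of the set, so no share over the set is given. A few windows are shown because they belong to genes the later results turn on. Mak came next to Syngr3 in level with Fusobacterium, Rasa4 is a gene found near its untreated level with both other bacteria, and Il17c and Cxcl10 differed between Neisseria and Helicobacter. The windows were searched on both strands for GCGTG (core of the aryl hydrocarbon receptor element), TGACGTCA (cAMP response element), TGACTCA (AP-1 element), GGACTTTCC (an NF-kB element) and TATAAA, known as the TATA box. Capitals mark the matches, which on the reverse strand read as their complement.
Mak, chr13:41079657-41079956, minus strand: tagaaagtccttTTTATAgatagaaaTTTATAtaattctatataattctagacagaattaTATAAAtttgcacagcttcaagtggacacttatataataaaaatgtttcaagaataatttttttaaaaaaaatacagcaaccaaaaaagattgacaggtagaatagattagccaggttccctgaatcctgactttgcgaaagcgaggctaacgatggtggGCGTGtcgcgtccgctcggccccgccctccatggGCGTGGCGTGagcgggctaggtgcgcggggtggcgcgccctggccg
Rasa4, chr5:136083666-136083965, plus strand: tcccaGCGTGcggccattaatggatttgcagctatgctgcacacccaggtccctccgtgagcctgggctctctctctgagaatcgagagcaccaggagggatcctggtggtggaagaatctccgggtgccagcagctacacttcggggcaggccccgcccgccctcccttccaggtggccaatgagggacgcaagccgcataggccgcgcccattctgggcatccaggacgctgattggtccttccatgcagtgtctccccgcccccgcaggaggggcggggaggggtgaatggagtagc
Il17c, chr8:122421770-122422069, plus strand: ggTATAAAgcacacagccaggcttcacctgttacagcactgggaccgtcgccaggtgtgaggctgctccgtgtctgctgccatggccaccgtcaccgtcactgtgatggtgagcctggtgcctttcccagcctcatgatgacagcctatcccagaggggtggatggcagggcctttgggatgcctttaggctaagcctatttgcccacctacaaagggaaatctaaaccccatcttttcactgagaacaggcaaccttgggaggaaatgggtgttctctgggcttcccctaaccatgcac
Cxcl10, chr5:92348840-92349139, minus strand: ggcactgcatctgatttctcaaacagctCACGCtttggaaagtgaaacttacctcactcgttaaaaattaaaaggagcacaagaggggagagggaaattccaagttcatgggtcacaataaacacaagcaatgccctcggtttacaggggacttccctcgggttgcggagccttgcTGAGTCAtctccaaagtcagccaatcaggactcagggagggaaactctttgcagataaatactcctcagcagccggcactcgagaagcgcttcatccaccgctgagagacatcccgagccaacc
The Mak window held 3 matches to the aryl hydrocarbon receptor core, the first of them 30 bases before the start, and the Rasa4 window held 1 at 245 bases before the start. The Cxcl10 window held 1 match to that core on the reverse strand and 1 to the AP-1 element, also on the reverse strand, which begins 74 bases before the start. The Mak window also held 3 matches to the TATA box and the Il17c window 1, the nearest of them 190 bases before the start. Among all 27025 RefSeq windows, the aryl hydrocarbon receptor core occurred in 32.5%, the AP-1 element in 5.17%, the TATA box in 14.2%, the cAMP response element in 1.88% and the NF-kB element in 0.34%. A match is only these letters in this window.

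Syngr3 (ENSMUSG00000007021, chromosome 17, 24685092 to 24689955 on the minus strand, GRCm38) had 9.86, 10.2 and 11.0 TPM with Fusobacterium. It had 0.0972, 0.394 and 0.174 TPM with Helicobacter, 1.64, 0.589 and 1.68 TPM with Neisseria, and 0.566, 0.204 and 0.116 TPM in untreated organoids. The Fusobacterium libraries lay above all others, and each Neisseria library lay above each Helicobacter and each untreated library. Behind these levels stood 467 counts over the 3 Fusobacterium libraries (95% exact Poisson interval 426 to 511), 12 over the Helicobacter libraries, 71 over the Neisseria libraries and 16 over the untreated libraries. Such intervals cover counting error only. Between the 2 groups that the choice of genes did not use, Syngr3 was higher with Neisseria than with Helicobacter by 2.67 ± 0.50 on the log2 scale (adjusted p = 0.000182 by the quasi-likelihood test of edgeR, adjusted over all genes tested).

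Nyap1 (ENSMUSG00000045348, chromosome 5, 137729899 to 137741607 on the minus strand) had 5.58, 5.78 and 5.53 TPM with Fusobacterium. Its values were 0.0546, 0.274 and 0.0868 TPM with Helicobacter, 0.28, 0.463 and 0.247 TPM with Neisseria, and 0.289, 0.153 and 0.131 TPM in untreated organoids. Levels in the last 3 groups overlapped, and none of those 9 libraries reached 0.5 TPM. The fitted change of Neisseria over Helicobacter was 1.37 ± 0.44 on the log2 scale (edgeR adjusted p = 0.017), although the libraries of these 2 groups overlapped. That call was lost in 6 of 13 other settings, where the adjusted p reached 0.117.

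Mak (ENSMUSG00000021363, chromosome 13, 41025008 to 41079706 on the minus strand) had 4.92, 6.80 and 6.54 TPM with Fusobacterium. It had 0.534, 0.529 and 0.545 TPM with Helicobacter, 0.754, 0.492 and 1.13 TPM with Neisseria, and 0.404, 0.249 and 0.304 TPM in untreated organoids. The Fusobacterium libraries stood apart, while the Helicobacter values fell within the range of the Neisseria values. The change of Neisseria over Helicobacter, 0.66 ± 0.30 on the log2 scale, did not pass the threshold (edgeR adjusted p = 0.0905).

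**Figure D1:**
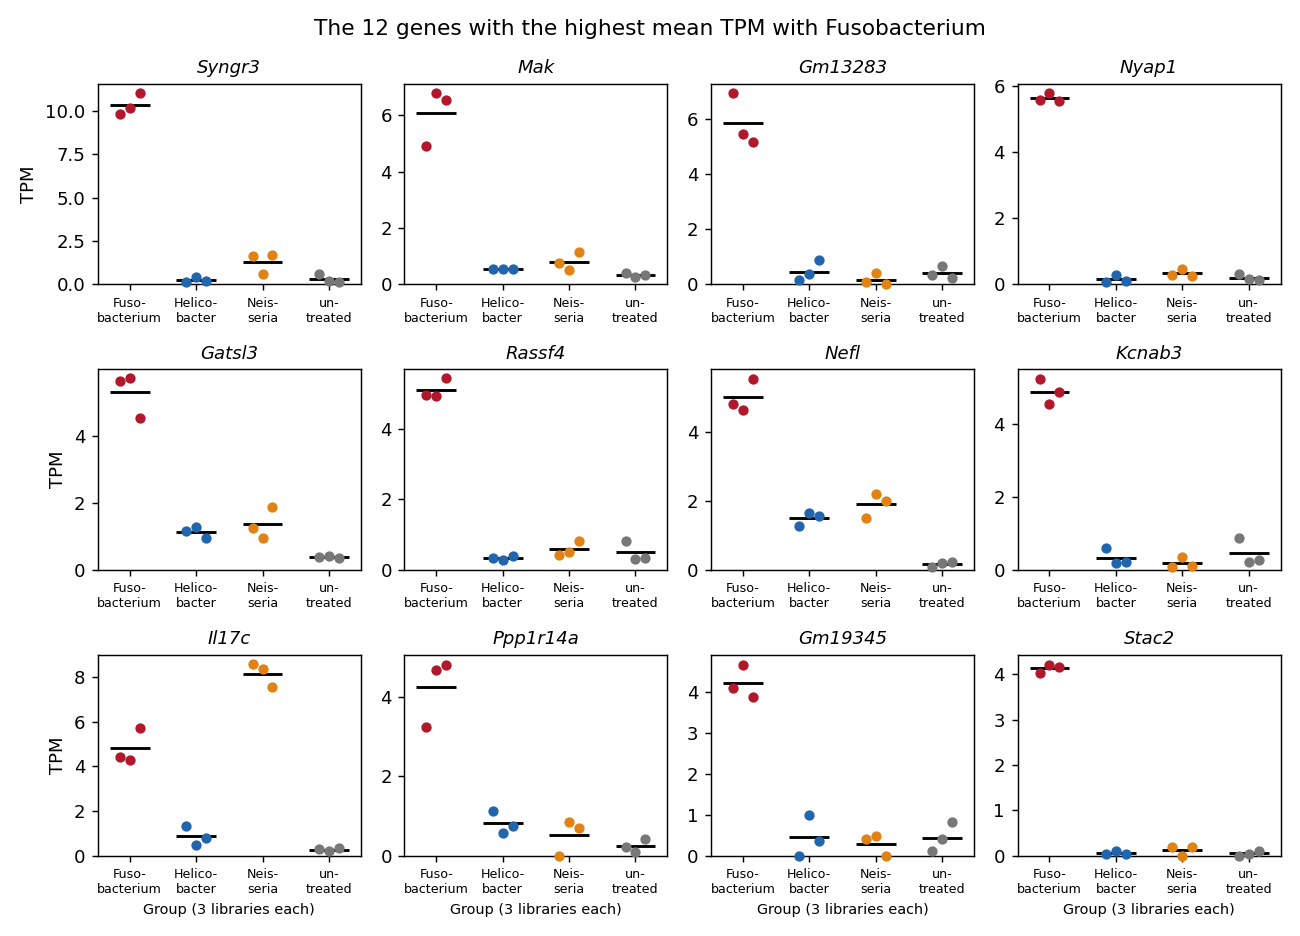
Levels of the 12 genes with the highest mean with Fusobacterium, in TPM on a linear axis from 0, with 1 point per library and a bar at the mean of each group of 3. Syngr3 reached 9.86 to 11.0 TPM with Fusobacterium, and Il17c is the gene of the 12 whose Neisseria libraries (7.54 to 8.57 TPM) lay above its Fusobacterium libraries.

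The other genes with the highest levels after Fusobacterium came from several kinds of gene. Gm13283 averaged 5.84 ± 0.947 TPM with Fusobacterium, 0.455 ± 0.368 with Helicobacter, 0.154 ± 0.212 with Neisseria and 0.406 ± 0.209 in untreated organoids (SD, n = 3 each). It lies among interferon genes on chromosome 4, and its promoter window differs from that of Gm13285, for which RefSeq lists limitin as a synonym, at 3 of 300 bases. Reads of the 2 copies may have been split or shared in counting, so their separate levels are uncertain. Gatsl3, which GENCODE lists as Castor1, an arginine sensor upstream of mTORC1, averaged 5.29 ± 0.656 TPM with Fusobacterium, 1.12 ± 0.165 with Helicobacter, 1.36 ± 0.469 with Neisseria and 0.391 ± 0.0307 in untreated organoids. Its Helicobacter and Neisseria libraries overlapped and lay between the other 2 groups.

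The neurofilament light chain gene Nefl, which builds the axon skeleton, had 4.80, 4.64 and 5.53 TPM with Fusobacterium. It had 1.27, 1.63 and 1.55 TPM with Helicobacter, 1.5, 2.19 and 1.99 TPM with Neisseria, and 0.0898, 0.197 and 0.237 TPM in untreated organoids. Nefl was thus detected at over 1 TPM in every library with any of the 3 bacteria. Rassf4, a gene of Ras-association proteins, averaged 5.10 ± 0.286 TPM with Fusobacterium, 0.328 ± 0.0635 with Helicobacter, 0.585 ± 0.215 with Neisseria and 0.493 ± 0.281 in untreated organoids. It overlaps 8430408G22Rik, a gene at 55 TPM with Fusobacterium on the opposite strand, and the use of strand in counting is not given in the sources used here.

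Kcnab3, a beta subunit of voltage-gated potassium channels, averaged 4.89 ± 0.344 TPM with Fusobacterium, 0.333 ± 0.234 with Helicobacter, 0.178 ± 0.162 with Neisseria and 0.453 ± 0.369 in untreated organoids. Stac2, an adaptor of neuronal calcium channels, averaged 4.14 ± 0.0913 TPM with Fusobacterium, 0.0574 ± 0.0418 with Helicobacter, 0.125 ± 0.108 with Neisseria and 0.0506 ± 0.0551 in untreated organoids. For both genes, the libraries with the other 2 bacteria overlapped the untreated libraries. Ppp1r14a, an inhibitor of myosin phosphatase known from smooth muscle, averaged 4.25 ± 0.878 TPM with Fusobacterium, 0.811 ± 0.281 with Helicobacter, 0.512 ± 0.45 with Neisseria and 0.246 ± 0.162 in untreated organoids. Gm19345, a gene with no role known here, averaged 4.20 ± 0.405 TPM with Fusobacterium and under 0.5 TPM in the other 3 groups.

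**Figure D2:**
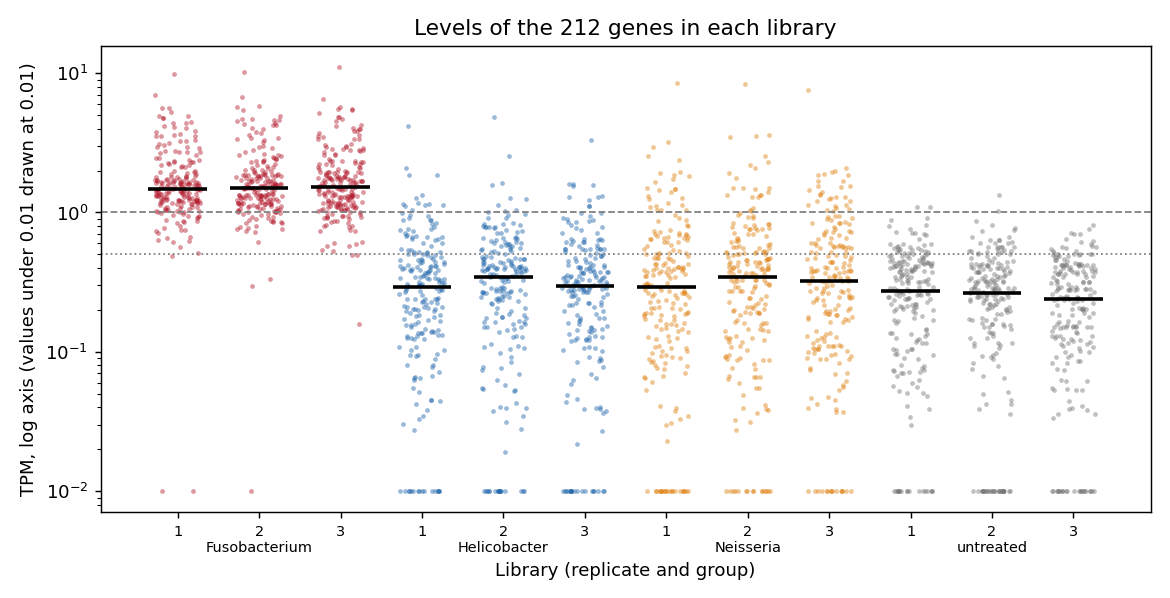
TPM of all 212 genes in each of the 12 libraries on a log axis, with 1 point per gene, a black bar at the library's median, and lines at 0.5 TPM (dotted) and 1 TPM (dashed). Medians ran from 1.49 to 1.52 TPM with Fusobacterium, 0.293 to 0.342 with Helicobacter, 0.292 to 0.347 with Neisseria and 0.239 to 0.275 in untreated organoids.

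For most of the set, levels with Helicobacter and Neisseria were within the silent range. The median of the group means was 1.5 TPM with Fusobacterium, 0.328 with Helicobacter, 0.346 with Neisseria and 0.304 in untreated organoids. The 212 genes took 547 to 553 CPM (counts scaled to the same library total) in the Fusobacterium libraries, 107 to 116 in the Helicobacter libraries, 133 to 137 in the Neisseria libraries and 86.6 to 93.8 in the untreated libraries. Of the 212 genes, 133 (62.7%) were under 0.5 TPM with both Helicobacter and Neisseria, 11 reached 1 TPM with Helicobacter and 24 with Neisseria. Among all 13670 genes under the untreated limit, 0.139% reached 1 TPM with Helicobacter and 0.417% with Neisseria. Those 13670 include the 212 themselves and the 8264 genes with 0 counts in all 12 libraries. Other protein-coding genes under the limit had a median of 0 TPM in untreated organoids. The shares thus start from unlike levels and are not compared. Depth was thin, since a member had a median of 104 counts over the 3 Fusobacterium libraries (range 9 to 781), 25 over the Helicobacter libraries, 26 over the Neisseria libraries and 19 over the untreated libraries.

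A total of 8 genes reached 1 TPM with both other bacteria, namely Ccl5, Gatsl3, Glrp1, H2-Ab1, Mgarp, Nefl, Nppb and Rsc1a1. Nppb, the gene of the heart hormone B-type natriuretic peptide, had 3.08, 3.78 and 1.94 TPM with Fusobacterium, 2.08, 2.55 and 1.6 with Helicobacter, 2.38, 1.78 and 1.06 with Neisseria, and 0.907, 0.171 and 0.293 in untreated organoids. The ranges of the 3 bacterial groups overlapped and lay above the untreated range. H2-Ab1, a chain of MHC class II, averaged 2.04 ± 0.502 TPM with Fusobacterium, 1.01 ± 0.275 with Helicobacter, 1.28 ± 0.211 with Neisseria and 0.393 ± 0.247 in untreated organoids. Mgarp, a mitochondrial protein gene, had 1.94, 1.11 and 0.733 TPM with Fusobacterium, 1.15, 1.03 and 3.34 with Helicobacter, 3.20, 2.08 and 1.97 with Neisseria, and 0.202, 0.445 and 0.153 in untreated organoids. Each Neisseria library lay above each Fusobacterium library for Mgarp, and Helicobacter replicate 3 stood above the other Helicobacter libraries.

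Rsc1a1, a regulator of sodium-coupled glucose transport, varied most between replicates, with 4.78, 3.45 and 0.157 TPM with Fusobacterium, 1.86, 4.86 and 1.30 with Helicobacter, 1.17, 0 and 1.89 with Neisseria, and 1.10, 0 and 0 in untreated organoids. It overlaps Ddi2 on the same strand, a gene at 25.6 TPM with Fusobacterium and 21.8 TPM in untreated organoids, so its counts are uncertain. Genes that reached 1 TPM with Helicobacter but not with Neisseria were Gm10131, Gm11992 and Tppp. Gm10131 rested on 32 counts in Helicobacter replicate 1 and 0 in the other 2 Helicobacter libraries. Tppp, which encodes a tubulin-binding protein of myelinating glia, averaged 1.70 ± 0.497 TPM with Fusobacterium, 1.04 ± 0.139 with Helicobacter, 0.846 ± 0.127 with Neisseria and 0.452 ± 0.239 in untreated organoids.

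In contrast to most of the set, 8 genes were at least as high with Neisseria as with Fusobacterium. Il17c (ENSMUSG00000046108, chromosome 8, 122422020 to 122423639), an interleukin-17 cytokine that epithelial cells secrete, had 4.40, 4.29 and 5.73 TPM with Fusobacterium, 1.33, 0.461 and 0.791 with Helicobacter, 8.57, 8.37 and 7.54 with Neisseria, and 0.281, 0.186 and 0.318 in untreated organoids. All 4 groups were free of overlap for this gene, with Neisseria at the top. Il17c lies within the longer gene model Gm20388 on the same strand, as Irf8 and Cpne7 also do. Ccl5, a chemokine for T cells, averaged 1.90 ± 1.08 TPM with Fusobacterium, 1.08 ± 0.316 with Helicobacter, 2.58 ± 1.12 with Neisseria and 0.374 ± 0.163 in untreated organoids, from 23 counts over the 3 Fusobacterium libraries. Psors1c2, a skin gene, averaged 1.61 ± 0.752 TPM with Fusobacterium, 0.548 ± 0.208 with Helicobacter, 1.92 ± 0.179 with Neisseria and 0.474 ± 0.287 in untreated organoids. The others were Glrp1, Gzma, Hba-a1, Mgarp and Nkx2-9.

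A filter on low counts, which also used the Fusobacterium values, passed 198 of the 212 genes. These 198 entered the test across all 12805 tested genes. With only the Neisseria and Helicobacter libraries, the filter passed 99 members. Against untreated organoids, 193 of the 198 were higher and 0 lower with Fusobacterium at an adjusted p under 0.05 in edgeR, where 32.8% of all tested genes were higher and 32.4% lower. At an unadjusted p under 0.05 the count was 195, and all 198 fitted changes were positive. Those numbers follow from the choice of genes. With Helicobacter, 11 were higher (5.56%, against 10.5% of all tested genes) and 1 lower (0.505%, against 8.36%). With Neisseria, 44 were higher (22.2%, against 25.4%) and 3 lower (1.52%, against 25.5%). With only the libraries compared, 7 of 85 members tested were higher with Helicobacter (8.24%, against 8.63% of all genes tested there) and 0 lower in edgeR (against 7.07%), with 1 lower at an unadjusted p under 0.05. With Neisseria, 31 of 93 were higher (33.3%, against 27.0%) and 2 lower (2.15%, against 25.9%). All 3 comparisons share the untreated libraries, which were chosen low, so nothing is read from their directions.

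The comparison of Neisseria with Helicobacter contrasts 2 groups that did not choose the genes. In the fit of all 12 libraries, the filter, the scaling and the estimate of spread also used the Fusobacterium and untreated libraries. In that fit, 26 of the 198 genes were higher with Neisseria (13.1%) and 5 lower (2.53%), while 19.0% of all tested genes were higher and 17.7% lower. The filter behind the 198 genes also used the Fusobacterium values, which chose the set. Neither these shares nor those of parts of the set given below are read against those of all genes. With only the Neisseria and Helicobacter libraries in the filter and the fit, 99 members were tested, of which 18 were higher (18.2%, against 18.2% of all genes tested there) and 3 lower (3.03%, against 14.3%). Some genes called in the fit of all 12 libraries did not pass that filter and could not be tested there. These were AC175538.2, Dhx58, Extl1, Gem, Gzma, Pf4, Rbm11 and Ybx2. At an unadjusted p under 0.05 the count among the 198 was 48. The median change was 0.11 on the log2 scale, against -0.02 over all tested genes. Of the 31 genes called, 10 were called in each of 13 other settings, namely Akap2, Bhlhe41, Bst1, Cxcl10, Fam131a, Il17c, Nr4a3, Peli3, Psors1c2 and Syngr3.

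**Figure D3:**
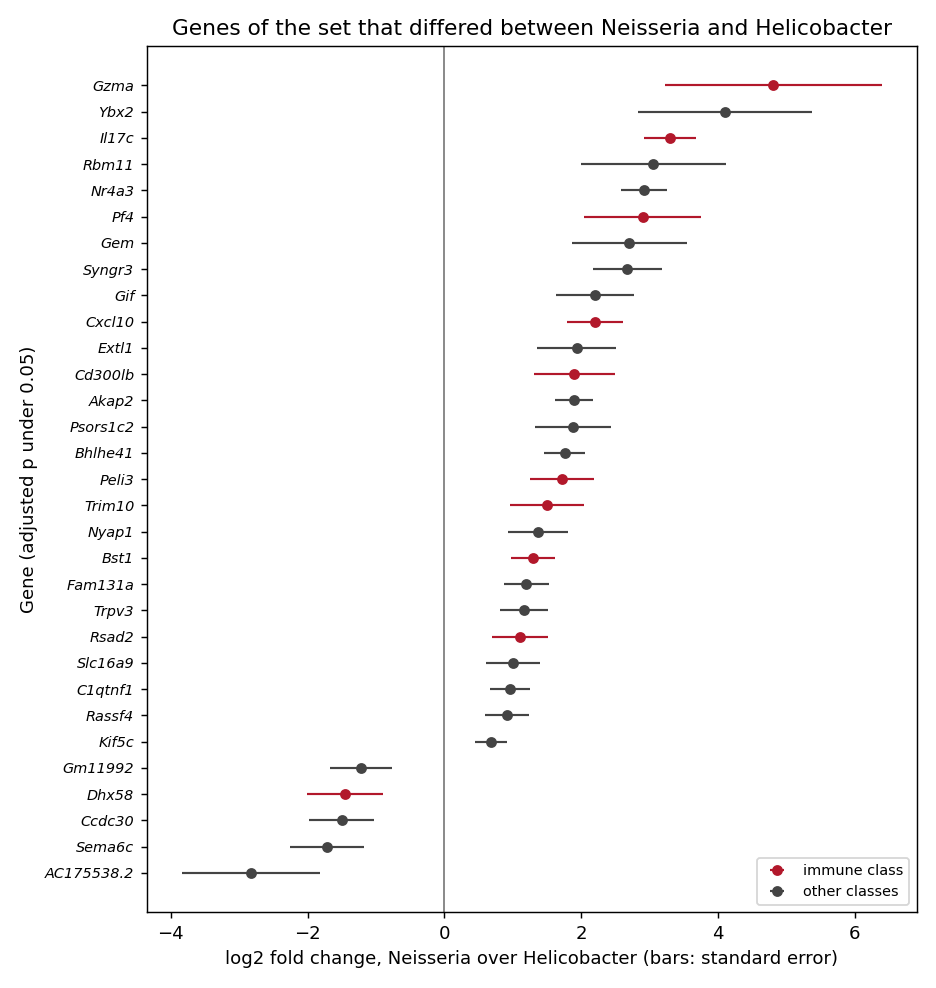
Log2 fold change of Neisseria over Helicobacter for the 31 genes past the threshold, with points at the fitted change, bars of 1 standard error, and the immune class in red. There are 26 genes right of 0 and 5 left of it, and 9 of the 26 belong to the immune class.

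Il17c was higher with Neisseria than with Helicobacter by 3.29 ± 0.38 on the log2 scale (edgeR adjusted p = 2.19e-07). Nr4a3, an orphan nuclear receptor induced early after many stimuli, was higher by 2.92 ± 0.34 (edgeR adjusted p = 2.74e-07). It had 2.32, 2.57 and 2.28 TPM with Fusobacterium, 0.198, 0.343 and 0.0393 with Helicobacter, 1.47, 1.40 and 1.26 with Neisseria, and 0.349, 0.323 and 0.158 in untreated organoids, so the Helicobacter libraries overlapped the untreated ones. Pf4, a chemokine of platelet granules, was higher by 2.90 ± 0.85 (edgeR adjusted p = 0.00978), from 36 counts with Neisseria and 5 with Helicobacter. Gem, a GTP-binding inhibitor of voltage-gated calcium channels, was higher by 2.71 ± 0.84 (edgeR adjusted p = 0.0139). Neither Pf4 nor Gem passed the filter with only the Neisseria and Helicobacter libraries. Without Neisseria replicate 3, which held 16 of its 25 Neisseria counts, Gem was no longer called (edgeR adjusted p = 0.160), and the call was also lost without Helicobacter replicate 3 (0.0531) and without both libraries marked L0 in their column names (0.0576).

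A further 3 genes among the largest rises rested on 1 or 2 Helicobacter counts, and their ratios are given from CPM with exact 95% intervals. These intervals cover counting error of the summed counts only and leave out the spread between libraries. Gzma, a protease of killer lymphocytes, had 60 counts with Neisseria and 2 with Helicobacter, a ratio of 31.1 (8.23 to 262). Its Neisseria counts were 26, 31 and 3 by library, its Fusobacterium counts were 0, 15 and 28, and the 3 untreated libraries held none. Ybx2, a germ-cell protein that binds mRNA, had 21 counts with Neisseria and 1 with Helicobacter, a ratio of 21.7 (3.50 to 899), and 17 of the 21 came from Neisseria replicate 2. Rbm11, a splicing regulator of brain and testis, had 10 counts with Neisseria and 1 with Helicobacter, a ratio of 10.4 (1.47 to 449). Gzma lost its call in 10 of 12 other settings, Rbm11 in 5 of 12 and Ybx2 in 3 of 12.

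All 5 genes lower with Neisseria had few counts there, and without Neisseria replicate 1, or without Helicobacter replicate 3, 1 gene was called lower. AC175538.2, a gene model that overlaps Itga1 and Pelo on the same strand, had 4 counts with Neisseria against 34 with Helicobacter (-2.82 ± 1.01 on the log2 scale, edgeR adjusted p = 0.0334), and lost its call in 5 of 12 other settings (adjusted p up to 0.117). Sema6c, a semaphorin that guides axons, had 0.206, 0 and 0.111 TPM with Neisseria and 0.336, 0.466 and 0.40 with Helicobacter (-1.71 ± 0.54, edgeR adjusted p = 0.015). Without Neisseria replicate 2 the Sema6c call was lost (edgeR adjusted p = 0.0685). Dhx58, which encodes the RNA helicase LGP2 of antiviral sensing, averaged 0.213 ± 0.0238 TPM with Neisseria and 0.649 ± 0.346 with Helicobacter (-1.46 ± 0.56, edgeR adjusted p = 0.0432), and lost its call in 9 other settings. Ccdc30 and Gm11992 were the others, at -1.50 ± 0.48 and -1.22 ± 0.45, and lost theirs in 3 and 7.

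By known roles, 173 of the 212 genes were placed by hand in 9 classes, made after the list had been seen, and 39 were left as other or unassigned. All 212 are protein-coding in GENCODE M21.

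Nerve genes formed the biggest class, with 28 members and class medians of 1.67 TPM with Fusobacterium, 0.276 with Helicobacter, 0.249 with Neisseria and 0.277 in untreated organoids. Beside Syngr3, Nyap1 and Nefl, its highest member was Nova2, a splicing factor of neurons, with 3.07, 3.71 and 3.53 TPM with Fusobacterium, 0.240, 0.330 and 0.217 with Helicobacter, 0.187, 0.193 and 0.324 with Neisseria, and 0.326, 0.207 and 0.164 in untreated organoids. The 9 libraries without Fusobacterium overlapped across groups for Nova2. With both other bacteria, 22 of the 28 were under 0.5 TPM. Between Neisseria and Helicobacter, 3 of 27 tested were higher with Neisseria (11.1%, against 19.0% of all tested genes) and 1 lower. Nefh, the heavy neurofilament chain, is no member, and it averaged 3.78 ± 0.796 TPM with Fusobacterium, 3.41 ± 0.460 with Helicobacter, 3.23 ± 0.675 with Neisseria and 4.95 ± 0.394 in untreated organoids.

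Other genes of these pathways showed what surrounded the members. Of 34 further synaptic vesicle genes, 22 were tested, of which 11 rose and 2 fell with Fusobacterium, where 32.8% of all tested genes rose and 32.4% fell. These counts and those of the lists that follow were not tested against that background. The relatives of Syngr3 behaved differently. Syngr1 had 30.2 ± 0.744 TPM with Fusobacterium and 32.1 ± 1.18 TPM in untreated organoids (edgeR adjusted p = 0.0711), and Syngr2 had 193 ± 4.47 TPM with Fusobacterium and 204 ± 1.95 TPM in untreated organoids. The fitted change of Syngr2, -0.12 ± 0.05 on the log2 scale (edgeR adjusted p = 0.0411), was called in 10 of 19 other settings. Syngr4 did not pass the filter and averaged 0.132 TPM with Fusobacterium.

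Among 12 partners and relatives of the NYAP proteins that are no members, 9 were tested, and 4 rose and 4 fell with Fusobacterium (32.8% and 32.4% of all tested genes). Fyn, a Src-family kinase, rose by 1.98 ± 0.20 to 5.16 ± 0.884 TPM, against 1.28 ± 0.126 TPM in untreated organoids (edgeR adjusted p = 8.63e-09). Wasf1 (2.38 on the log2 scale), Pik3r2 (0.93) and Pik3ca (0.26) also rose. Those that fell were Wasf2 (-0.54), Pik3r1 (-0.55), Nckap1 (-0.41) and Cyfip1 (-0.24). The relative Nyap2 had 0.00366 TPM with Fusobacterium and was listed at 0 in the other 3 groups. Cyfip2, a subunit of the WAVE complex, is itself a member at 1.10 ± 0.0384 TPM with Fusobacterium, 0.225 ± 0.0236 with Helicobacter, 0.238 ± 0.0767 with Neisseria and 0.167 ± 0.119 in untreated organoids. Of the other kinases of the Mak family, Mok rose by 2.11 ± 0.31 to 5.81 ± 0.525 TPM with Fusobacterium, against 1.34 ± 0.594 TPM in untreated organoids (edgeR adjusted p = 3.2e-06). Ick had 27.3 ± 0.904 TPM with Fusobacterium and 28.8 ± 1.17 TPM in untreated organoids (edgeR adjusted p = 0.112).

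Markers of neurons and glia were examined beside the nerve genes. Over 14 such markers, none a member, the summed level was 26.4 to 27.7 TPM in the Fusobacterium libraries, 12.6 to 12.9 with Helicobacter, 14.3 to 16.3 with Neisseria and 9.05 to 10.6 in untreated organoids. These sums were above the untreated range with each of the 3 bacteria. The nerve class medians were 0.276 TPM with Helicobacter, 0.249 with Neisseria and 0.277 in untreated organoids. Of the 6 tested, 5 rose with Fusobacterium and 0 fell (32.8% and 32.4% of all tested genes), while Sox10, which defines enteric glia, had 0 counts in the 9 libraries with bacteria. The part of these markers in the levels of the nerve genes was not tested.

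Surface receptors and proteins that bind or regulate small GTPases numbered 26, with medians of 1.33 TPM with Fusobacterium, 0.229 with Helicobacter, 0.25 with Neisseria and 0.192 in untreated organoids. No member of this class reached 1 TPM with Helicobacter or with Neisseria. Rasa4, which switches off Ras in response to calcium, had 3.59, 4.36 and 2.95 TPM with Fusobacterium, 0.0893, 0.0689 and 0.142 with Helicobacter, 0.0610, 0.108 and 0.0367 with Neisseria, and 0.0631, 0.0832 and 0.178 in untreated organoids. The 9 libraries without Fusobacterium overlapped across groups, at 1 to 5 counts each. Rab7b, a GTPase of late endosomes, averaged 3.16 ± 0.225 TPM with Fusobacterium, 0.377 ± 0.131 with Helicobacter, 0.524 ± 0.126 with Neisseria and 0.415 ± 0.0325 in untreated organoids. Receptors of the class for neurotransmitters, hormones and taste include Chrm4 (muscarinic), Adora2a (adenosine), Kiss1r (kisspeptin), Lpar3 (lysophosphatidic acid), Klb (co-receptor of fibroblast growth factors) and Tas1r3 (sweet and savoury taste), all between 1.02 and 1.54 TPM with Fusobacterium.

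The 26 immune genes were the class with most members called between Neisseria and Helicobacter. Of 25 tested, 9 were higher with Neisseria (36%, against 19.0% of all tested genes) and 1 lower, and the class median was 1.21 on the log2 scale. The class was drawn up with the values known, and its difference from the other classes was not tested. The filter that passed these 25 also used the Fusobacterium values, so the 36% is not read against the share of all genes. Pf4 and Gzma did not pass the filter with only the Neisseria and Helicobacter libraries. Class medians were 1.6 TPM with Fusobacterium, 0.341 with Helicobacter, 0.587 with Neisseria and 0.332 in untreated organoids. Cxcl10, a chemokine induced by interferon, had 4.17, 4.06 and 3.98 TPM with Fusobacterium, 0.440, 0.582 and 0.599 with Helicobacter, 1.87, 3.58 and 1.55 with Neisseria, and 0.599, 0.527 and 0.226 in untreated organoids. Its Neisseria libraries lay between the Fusobacterium libraries and the rest, and its change of Neisseria over Helicobacter was 2.20 ± 0.41 (edgeR adjusted p = 0.000152). Also higher with Neisseria than with Helicobacter were Pf4, Gzma and Il17c, and Bst1, an ectoenzyme of bone marrow stroma, Peli3, a ubiquitin ligase of innate signalling, Trim10, the antiviral gene Rsad2 and the receptor gene Cd300lb. Among these, Gzma lost its call in 10 of 12 other settings, Trim10 in 6 of 13 (adjusted p up to 0.128) and Rsad2 in 2 of 13 (up to 0.204). Pf4 lost its call in 1 of 12 and Cd300lb in 1 of 13.

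The summed level of 9 leukocyte markers was 41.1 to 45.9 TPM with Fusobacterium, 24.4 to 25.1 with Helicobacter, 31.2 to 33.0 with Neisseria and 23.8 to 30.4 in untreated organoids. Cd68 alone, which other cells also express, accounted for 41.3 ± 1.53 TPM with Fusobacterium, 23.5 ± 0.553 with Helicobacter, 28.9 ± 0.951 with Neisseria and 24.2 ± 2.19 in untreated organoids. Without Cd68 the sum of the other 8 was 0.277 to 2.87 TPM with Fusobacterium, 0.434 to 2.21 with Helicobacter, 2.85 to 2.97 with Neisseria and 0.516 to 4.17 in untreated organoids. The Neisseria range lay above the Helicobacter range, but it overlapped the Fusobacterium range and lay within the untreated range. The Fusobacterium, Helicobacter and untreated ranges also overlapped. Cd3e, which defines T cells, had 0 counts with Helicobacter and in untreated organoids. The pan-leukocyte gene Ptprc averaged 0.560 TPM with Fusobacterium, 0.285 with Helicobacter, 0.663 with Neisseria and 0.177 in untreated organoids. The part of leukocyte RNA in the immune levels was not tested.

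**Figure D4:**
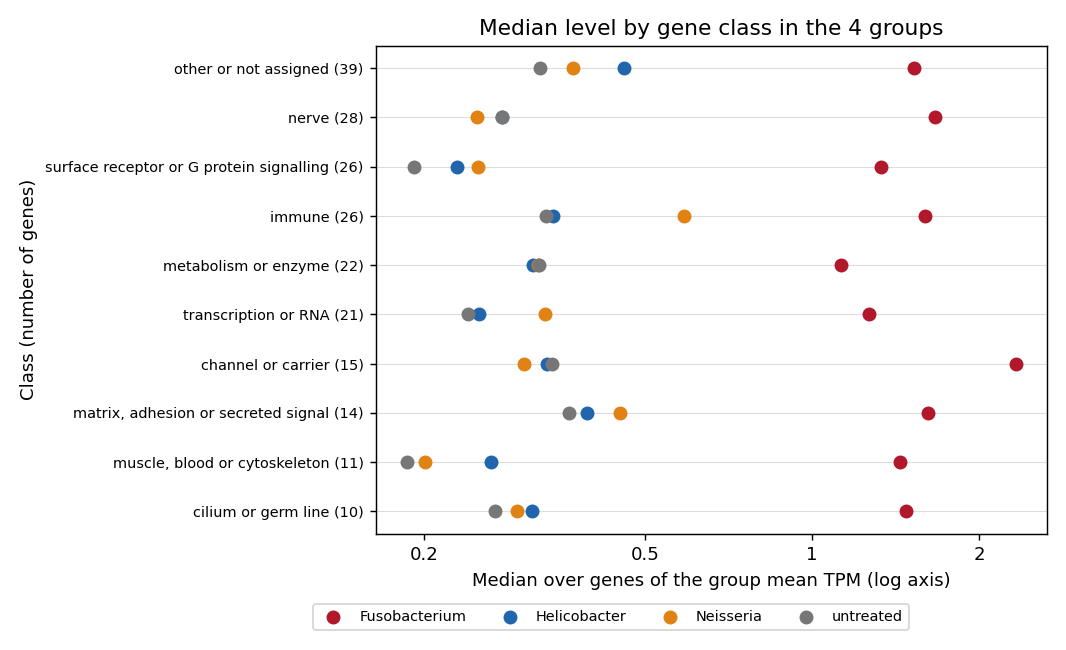
Median over the genes of each class of the group mean TPM, on a log axis, for the 4 groups, with the number of genes in brackets. Fusobacterium medians lie above 1 TPM in each class, as the choice of genes requires, and the Neisseria median stands at 0.587 TPM in the immune class, to the right of Helicobacter at 0.341 TPM.

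Channels and carriers, 15 genes, had the highest class median with Fusobacterium, 2.33 TPM, against 0.333 with Helicobacter, 0.303 with Neisseria and 0.339 in untreated organoids. Kcnh2, the potassium channel that repolarises heart muscle, had 3.30, 3.34 and 2.57 TPM with Fusobacterium, 0.349, 0.285 and 0.269 with Helicobacter, 0.147, 0.324 and 0.380 with Neisseria, and 0.435, 0.259 and 0.345 in untreated organoids. No overlap existed between Fusobacterium and the other 9 libraries. Kcnn1, a calcium-activated potassium channel of neurons, averaged 2.81 ± 0.257 TPM with Fusobacterium, 0.347 ± 0.0786 with Helicobacter, 0.303 ± 0.0482 with Neisseria and 0.271 ± 0.0429 in untreated organoids. Kcnh3 and Kcnj4, further potassium channels, Cacna1g, a T-type calcium channel, and Slc2a4, the insulin-dependent glucose transporter of muscle and fat, averaged 1.72 to 2.71 TPM with Fusobacterium. From a list of 25 channel and transporter genes of excitable cells, 5 are members, and of the other 20 only 6 were tested, of which 4 rose and 0 fell with Fusobacterium (32.8% and 32.4% of all tested genes).

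Genes of transcription and RNA, 21 in number, had medians of 1.27 TPM with Fusobacterium, 0.251 with Helicobacter, 0.331 with Neisseria and 0.239 in untreated organoids. Csdc2, a cold-shock RNA-binding protein of brain, had 3.55, 4.61 and 3.71 TPM with Fusobacterium, 0, 0.235 and 0.0404 with Helicobacter, 0, 0.0822 and 0.126 with Neisseria, and 0, 0 and 0.0406 in untreated organoids. A single count over 3 untreated libraries lies behind the last value. Mkx, a homeobox gene of tendon, averaged 3.09 ± 0.798 TPM with Fusobacterium, 0.321 ± 0.0234 with Helicobacter, 0.40 ± 0.0045 with Neisseria and 0.436 ± 0.0610 in untreated organoids. Msx3, a homeobox gene of the dorsal neural tube, averaged 2.94 ± 0.327 TPM with Fusobacterium, 0.124 ± 0.149 with Helicobacter, 0.0497 ± 0.05 with Neisseria and 0.395 ± 0.0552 in untreated organoids.

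Among 22 metabolic and enzyme genes the medians were 1.13 TPM with Fusobacterium, 0.315 with Helicobacter, 0.320 with Neisseria and 0.322 in untreated organoids. Crabp2, a carrier of retinoic acid, averaged 3.43 ± 1.66 TPM with Fusobacterium, 0.694 ± 0.517 with Helicobacter, 0.407 ± 0.417 with Neisseria and 0.281 ± 0.156 in untreated organoids. Gif, which encodes gastric intrinsic factor, the vitamin B12 carrier of the stomach, is a gene of this organ and had 1.24, 1.25 and 2.77 TPM with Fusobacterium, 0.124, 0.575 and 0.370 with Helicobacter, 0.954, 2.56 and 1.07 with Neisseria, and 0.592, 0.608 and 0.223 in untreated organoids. Each Neisseria library lay above each Helicobacter library for Gif, a change of 2.20 ± 0.58 on the log2 scale (edgeR adjusted p = 0.00409). Without Neisseria replicate 2 the change of Gif was 1.63 and the call was lost (edgeR adjusted p = 0.0566).

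The 14 genes of matrix, adhesion and secreted signals had medians of 1.62 TPM with Fusobacterium, 0.393 with Helicobacter, 0.45 with Neisseria and 0.365 in untreated organoids. Mxra8, a surface protein of mesenchymal cells known as a receptor of alphaviruses, had 3.77, 4.00 and 4.03 TPM with Fusobacterium, 0.0425, 0.0983 and 0.101 with Helicobacter, 0.261, 0.103 and 0.105 with Neisseria, and 0.315, 0.237 and 0.204 in untreated organoids. Levels with Helicobacter were below every untreated library, at 1 or 2 counts each. Muscle, blood and cytoskeleton genes numbered 11, with Ppp1r14a in front, then Myom3 of the muscle M-band at 2.0 ± 0.415 TPM and Add2, a red-cell membrane skeleton gene, at 1.91 ± 0.291 TPM with Fusobacterium. Hba-a1, an alpha-globin gene with a near-identical copy, had 9, 8 and 4 counts with Fusobacterium, 0, 5 and 5 with Helicobacter, 13, 6 and 11 with Neisseria and 0 in each untreated library. The 6 erythroid markers, Hba-a1 among them, summed to 2.53 to 4.46 TPM with Fusobacterium, 0.747 to 1.64 with Helicobacter, 1.32 to 3.52 with Neisseria and 0.207 to 1.39 in untreated organoids, and their part in that gene's level was not tested.

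Finally, 10 genes of cilia and germ line had medians of 1.48 TPM with Fusobacterium, 0.313 with Helicobacter, 0.294 with Neisseria and 0.268 in untreated organoids. After Mak came Ccno, a cyclin of multiciliated cells, at 1.80 ± 0.290 TPM with Fusobacterium, Spag6l, a protein of the ciliary and sperm axoneme, at 1.67 ± 0.657, and Cfap52, a further axoneme gene, at 1.52 ± 0.238. Of these 10 genes, 9 were under 0.5 TPM with both Helicobacter and Neisseria. Germ-cell markers, 6 in all, summed to 0.529 to 1.10 TPM with Fusobacterium, 0.248 to 0.473 with Helicobacter, 0.0649 to 0.518 with Neisseria and 0.0886 to 0.593 in untreated organoids, and Tnp1 was at 0 counts in every library. Of 30 further germline and testis genes, 4 were tested, and 0 rose and 2 fell with Fusobacterium (32.8% and 32.4% of all tested genes).

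In the genome, the set was spread over every chromosome but Y. Chromosome 11 held 32 of the 212 genes (15.1%), where it holds 7.49% of protein-coding genes in the table and 8.12% of those at 0.5 TPM or more without bacteria. Chromosome 4 held 27 (12.7%, against 6.06% and 6.32%). Chromosome 9 held 5 (2.36%, against 5.54% of protein-coding genes). These shares are descriptions and were not tested.

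**Figure D5:**
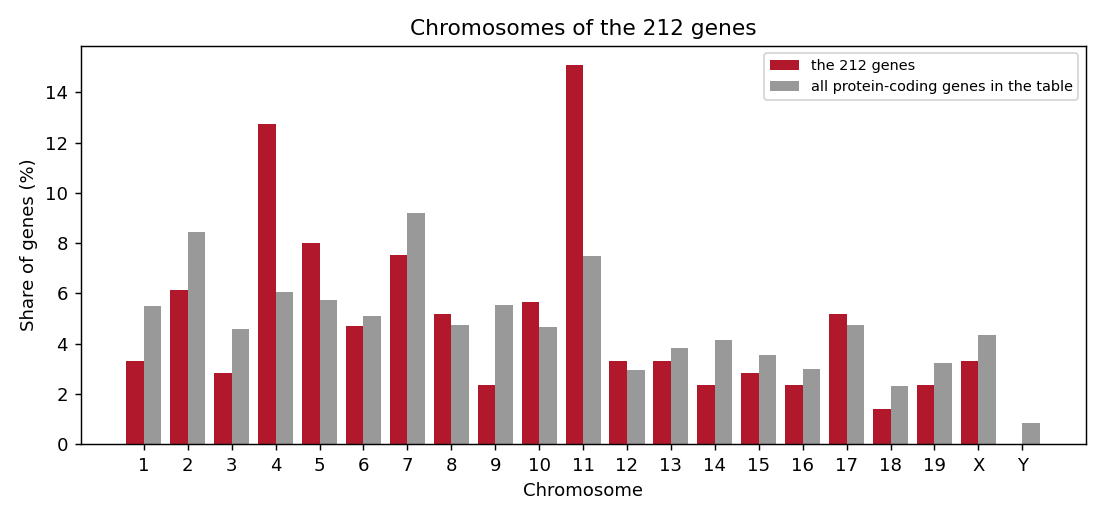
Share of the 212 genes (red) and of all protein-coding genes in the table (grey) on each chromosome, in percent. Chromosomes 11 and 4 stand out in red, with 15.1% and 12.7% of the set against 7.49% and 6.06% of protein-coding genes.

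Within 100 kb of each other lay 12 pairs made of 21 members. The sialyltransferase genes St6galnac4 and St6galnac6 follow each other on chromosome 2 with 11 bases between them, and Ybx2 and Slc2a4 lie end to end on chromosome 11 with 934 bases between them. Nefm and Nefl overlap on opposite strands of chromosome 14 in the deposited coordinates. Nefm, the medium neurofilament chain, averaged 1.24 ± 0.274 TPM with Fusobacterium, 0.0921 ± 0.0940 with Helicobacter, 0.108 ± 0.0519 with Neisseria and 0.0890 ± 0.0327 in untreated organoids, so it did not share the levels of Nefl with the other 2 bacteria. On chromosome 4, Vwa1, Mxra8 and Tas1r3 lie within 85 kb, and Gm13283 and Gm13285 are 38.1 kb apart.

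A gene on the same strand ended within 10 kb upstream of 71 members (33.5%), against 18.9% of other protein-coding genes under the untreated limit and 23.7% of those above it. For 16 members (7.55%, against 2.48% and 6.13%) that upstream gene rose with Fusobacterium, and 1 of the 16 upstream genes is itself a member. For 14 members (6.60%, against 2.31% and 5.63%) it fell. Examples that rose are Cacnb1, a calcium channel subunit, 5327 bases before Arl5c, which rose by 2.26 on the log2 scale (edgeR adjusted p = 2.04e-07), and Tbc1d10a, 2720 bases before Gatsl3, which rose by 0.75 (edgeR adjusted p = 5.8e-07). Upstream of Syngr3, Gfer ended 3236 bases away and had a fitted change of -0.24 (edgeR adjusted p = 0.00432). Trappc1, 465 bases before Kcnab3, had one of 0.18 (edgeR adjusted p = 0.0649). Another gene overlapped 50 members (23.6%, against 19.0% and 30.5%), on the opposite strand for 33 of them. Of the 162 members that overlap no other gene, 152 were tested between Neisseria and Helicobacter, and 19 were higher and 3 lower with Neisseria, where 19.0% of all tested genes were higher and 17.7% lower. Their medians were 1.54 TPM with Fusobacterium, 0.324 with Helicobacter, 0.346 with Neisseria and 0.301 in untreated organoids.

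How firmly a gene sits in the set varied. Just inside the Fusobacterium limit were Dhx58 (1.01 ± 0.30 TPM), Lat2 (1.01 ± 0.551) and Casc1 (1.01 ± 0.124), and just outside it Arhgdib (0.994 ± 0.0392), Neil2 (0.992 ± 0.375) and Tmod2 (0.983 ± 0.174). Just inside the untreated limit, before rounding, were Dgkh (0.50 ± 0.0577 TPM), Lat2 (0.497 ± 0.245) and Magee1 (0.495 ± 0.0156), and just outside it Relt (0.50 ± 0.0207), Eomes (0.505 ± 0.177) and Itpkb (0.505 ± 0.257). In 94 of the 212, each untreated library was under 0.5 TPM and each Fusobacterium library at 1 TPM or more. When the limits were applied to 2 replicate numbers at a time, they gave 224, 206 and 198 genes, and in the library left out 75.9%, 81.1% and 79.3% of these reached 1 TPM with Fusobacterium. In the left-out untreated library, 75.9%, 75.2% and 84.8% of these genes were under 0.5 TPM. The left-out Fusobacterium library was above the left-out untreated library of the same number for 93.8% to 98.1% of those genes. These libraries are the ones that chose the 212 genes, so the shares are descriptions and not a test. There were 8 members with 0 counts over the untreated libraries and 11 with under 30 counts over the Fusobacterium libraries. The same limits gave 17 genes with Helicobacter in place of Fusobacterium and 49 with Neisseria, with the same names left out.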

How the data were processed

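RNA was sequenced from 12 libraries of mouse gastric organoids. Raw counts, whole numbers that were not normalized, and TPM are columns the authors deposited, as read from the file headers. Deposited columns headed CPM had totals on either side of the one that unit fixes, so they were treated as a score of unstated scaling and used only for another form of the choice of genes. The submitters' processing notes name GRCm38. How reads were aligned and counted, and whether strand was used, is not given in the sources used here. Another 12 deposited columns (RPKM) were not used.

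The members, the 18 gene lists and the tests were chosen with earlier results of these data known. Counts of all 12 libraries were fitted together in edgeR 4.0.16 (R 4.3.3) by group, after filterByExpr and TMM, with robust quasi-likelihood dispersion. The 12805 genes left held 99.96% of counts. Tests were two-sided, and a gene was called at a Benjamini-Hochberg adjusted p under 0.05 over these genes, whatever its fold. The steps were tested on simulated data. Log2 fold changes carry ± standard error (taken from the change and its F statistic), and TPM means carry ± SD (n = 3). The common coefficient of biological variation was 5.71%, and replicates differed by more than counting noise (chi-square per degree of freedom 2.26 to 11.0).

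Genes were named by a rule: Syngr3, Nyap1, Mak, the highest in each bacterial group and in each class, the largest changes of Neisseria over Helicobacter, neighbours within 100 kb, genes at the limits, and family members or smallest adjusted p in the lists. Receptors below the top of their class, upstream genes, Gif and other genes named outside that rule were chosen after their values were seen. Some genes that the rule names are not reported here. Annotation came from GENCODE M21, with the same start and end for 202 of the 212 genes and the same name for 209, and coordinates are those of the deposited table. Figures were drawn with matplotlib in Python. Alternatives were median-of-ratios scaling, no filter, DESeq2 (1.42.0), limma (3.58.1) on log2(TPM + 1), only the libraries compared, the replicate number as a block, each library left out, and other limits of the choice. Settings added after the data were seen were leaving out both libraries whose column names carry the mark L0 (untreated replicate 3 and Helicobacter replicate 3), other upstream windows and no names left out.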

Additional observations from a re-analysis of the deposited data

How the results depend on the processing

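The count of 31 genes called between Neisseria and Helicobacter ran from 21 to 30 over the settings without 1 library, was 22 without Helicobacter replicate 1, which carries pancreatic transcripts, and was 24 without both L0 libraries. Of these 31, 10 were called under each of the 13 alternatives and 0 changed direction, while 90 of 395 results for single genes lost their call. The median change, 0.11 on the log2 scale, became 0.00382 with limma on log2(TPM + 1), which shifted the median of all genes by -0.10, and 0.40 with only the libraries compared, where 99 of the genes were tested, and ran from 0.0745 to 0.223 without 1 library. Against untreated organoids, the 12 calls with Helicobacter became 7 with only the libraries compared and 6 to 12 without 1 library, the lowest of them without untreated replicate 2. For Neisseria against untreated organoids limma shifted it by -0.20. The 212 genes became 83 with an untreated limit of 0.25 TPM, 51 with a Fusobacterium limit of 2 TPM, and 94 when each library had to meet the limits. The deposited CPM columns in place of TPM gave 221 genes, of which 114 were shared. Of the 11 genes at 1 TPM with Helicobacter, 4 were so in each library and 2 reached 2 TPM, and 5 of the 24 with Neisseria reached 2 TPM. The share with an upstream gene, 33.5% at 10 kb, was 19.3% at 5 kb and 48.1% at 20 kb. No label says whether a replicate number marks a shared culture, animal or day. The correlation of deviations between libraries of the same number ran from -0.0959 to 0.0919 over 18 pairs. Of 12 libraries, 4 correlated best with their own number. Such low values cannot exclude a weak pairing. With the replicate block, 27 genes were called between Neisseria and Helicobacter. The members had medians of 26 counts with Neisseria and 25 with Helicobacter over 3 libraries, and the size of difference that this depth can show was not measured.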
